A study of Mus musculus with 8 samples.

Results

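Genes that mark the sinusoidal endothelial cells of the liver, 10 in number, were followed in liver tissue of mice given dexamethasone or saline: Lyve1, Stab1, Stab2, Mrc1, Fcgr2b, Clec4g, Oit3, Kdr, Flt4 and Pecam1. They were chosen by name as markers of these cells, with earlier results of these data known, and all 10 were found among the 22565 protein-coding genes of the table. The dexamethasone group held 4 male C57BL/6J mice that received the synthetic glucocorticoid by daily intraperitoneal injection at 1.0 mg/kg for 14 days. The vehicle group held 4 male mice of the same strain that received saline on the same schedule, and all mice were 10 weeks old when obtained. Each library was made from liver RNA after removal of ribosomal RNA. Sinusoidal cells were not isolated, so fewer of these cells and less RNA per cell cannot be told apart here. The labels give no alleles, and no label pairs the mice of the groups or says how the libraries relate to animals, so p-values measure the spread between these libraries.

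Sinusoidal endothelial cells line the blood channels between plates of hepatocytes. They have open pores and little basement membrane, and they clear waste molecules from blood through a set of uptake receptors. Among the members, Lyve1 encodes a hyaluronan receptor, and Stab1 and Stab2 encode the stabilins, large scavenger receptors. Mrc1 encodes the mannose receptor, which macrophages also carry, Fcgr2b an inhibitory receptor for IgG, and Clec4g the C-type lectin known as LSECtin. Kdr and Flt4 encode receptors for vascular endothelial growth factors (VEGFR2 and VEGFR3), through which endothelium is maintained, and Pecam1 encodes an adhesion molecule of endothelium in general. Oit3 encodes a secreted protein with a zona pellucida domain and is used as a marker of these cells in mouse liver.

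The members did not move as a block. Lyve1 rose with dexamethasone and Kdr fell, whereas 8 of the 10 did not pass the test in the values as deposited. Once the shift of the median gene was scaled away, Lyve1, Stab1 and Oit3 were higher with dexamethasone and Kdr no longer passed in FPKM. The summed level of the 10 genes was 74.4 ± 15.9 FPKM with dexamethasone and 76.0 ± 8.02 FPKM with vehicle (SD, n = 4 each). FPKM counts sequenced fragments relative to transcript length and library size. The make-up of that sum differed between the groups: Stab1 supplied 22.1% to 31.0% of it with dexamethasone and 15.3% to 21.1% with vehicle, and Kdr 3.65% to 5.87% with dexamethasone and 8.29% to 8.98% with vehicle.

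Libraries were compared on 2 scales throughout, because the groups differed in a way that touched most genes. The part of Lars2 and of depth in the values of the members was not tested. Of 10221 genes tested, 140 were higher with dexamethasone and 802 lower in FPKM as deposited (adjusted p under 0.05, limma with Benjamini-Hochberg adjustment over all genes tested), and the median log2 fold change of all genes was -0.28. A single gene, Lars2, took 28.4% to 51.1% of all scaled counts with dexamethasone and 14.5% to 25.3% with vehicle (scaled counts are the second deposited measure, not divided by length). Fragments outside Lars2, inferred from the scaled counts, numbered 665937 to 1581775 with dexamethasone and 1636128 to 2571861 with vehicle, and dexamethasone 4 was the shallowest library. After each library was divided by its median ratio to the average library (median-ratio scaling), 337 genes were higher and 310 lower, and the median log2 fold change was -0.00. Calls on deposited values are given first below, and every log2 fold change is dexamethasone over vehicle, with its SE where shown. It is on log2(FPKM + 1), or on log2(scaled count + 1) where scaled counts are named. Adding 1 understates the change of low genes, and for the members more in FPKM than in the larger scaled counts.

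As deposited, 1 member was called higher, where 1.37% of all genes were, and 1 was called lower, where 7.85% of all genes were. After median-ratio scaling 3 members were called higher and 0 lower, where 3.3% and 3.03% of all genes were. At an unadjusted p under 0.05 the count over all genes was 2064 after scaling and 2799 as deposited. The median log2 fold change over the 10 members was -0.13 as deposited, against -0.28 over all genes, and 0.21 after scaling, against -0.00 over all genes. At an unadjusted p under 0.05, 2 members were higher and 4 lower as deposited, and 3 were higher and 1 (Kdr) lower after scaling. The counts over all genes at that level were not split by direction, so these member counts have no share to be read against. Of the adjusted calls over all genes as deposited, 85.1% were lower.

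**Figure D1:**
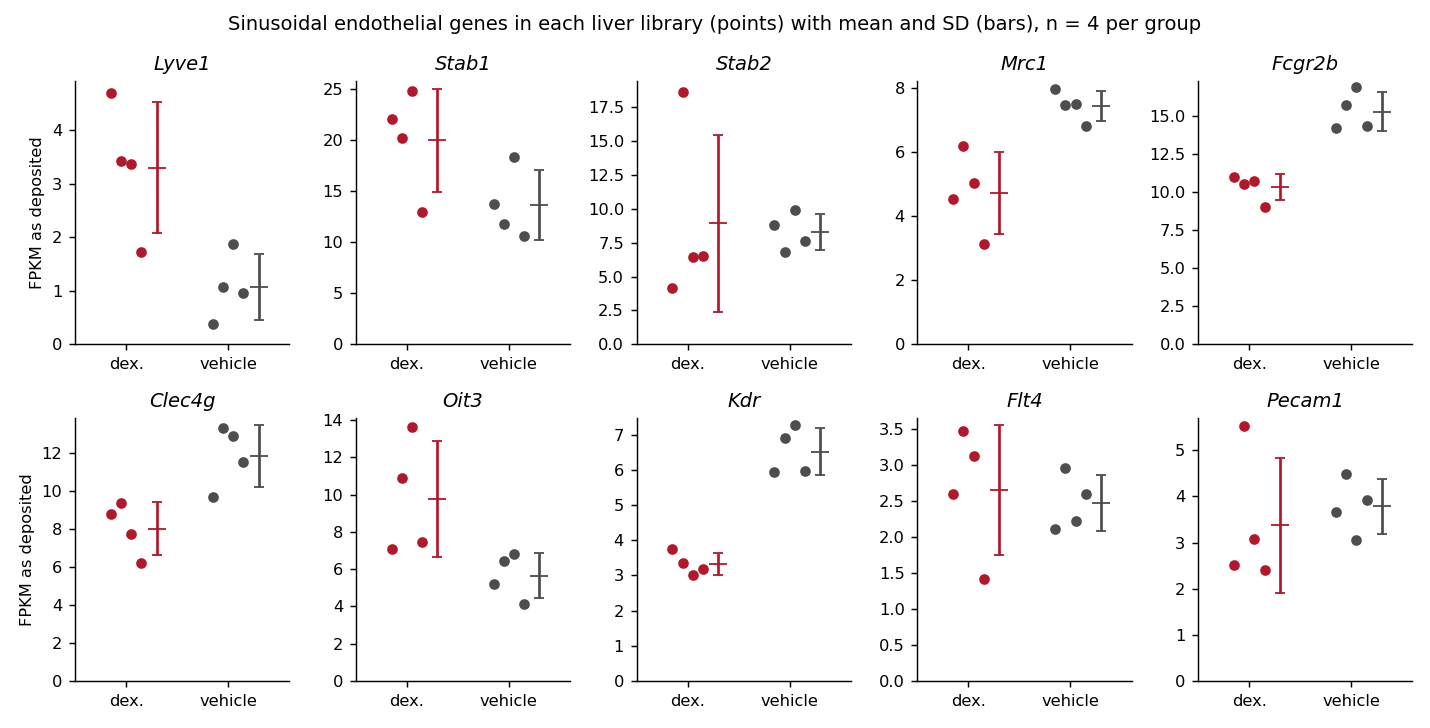
FPKM as deposited of the 10 members in each library, with dexamethasone at left and vehicle at right in each panel. Points are libraries and bars are the mean and SD of 4. Kdr lies at 3.01 to 3.75 FPKM with dexamethasone and at 5.94 to 7.27 FPKM with vehicle, whereas 1 dexamethasone library of Stab2 stands at 18.6 FPKM.

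The stretches upstream of 3 members are shown because they set side by side a stabilin that was higher after scaling (Stab1), the related stabilin that did not pass (Stab2) and the receptor that fell (Kdr). Each is the 250 bases before the RefSeq start in GRCm38.p6, read 5′ to 3′ on the gene's own strand, which is the minus strand for all 3. Capitals mark CAGGAA or its reverse complement, a core that ETS factors, regulators of endothelial genes, are known to bind.
Stab1, chr14:31168642-31168891: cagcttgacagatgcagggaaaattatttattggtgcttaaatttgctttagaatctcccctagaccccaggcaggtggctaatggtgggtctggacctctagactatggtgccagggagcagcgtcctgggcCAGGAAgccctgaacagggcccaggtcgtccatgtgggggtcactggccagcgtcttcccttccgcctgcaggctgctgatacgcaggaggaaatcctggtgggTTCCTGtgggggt
Stab2, chr10:87007943-87008192: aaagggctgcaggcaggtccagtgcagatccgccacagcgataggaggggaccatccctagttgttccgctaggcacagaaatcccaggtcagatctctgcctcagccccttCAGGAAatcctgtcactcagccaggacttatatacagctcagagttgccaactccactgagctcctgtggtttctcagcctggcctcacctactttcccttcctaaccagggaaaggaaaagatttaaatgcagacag
Kdr, chr5:75978456-75978705: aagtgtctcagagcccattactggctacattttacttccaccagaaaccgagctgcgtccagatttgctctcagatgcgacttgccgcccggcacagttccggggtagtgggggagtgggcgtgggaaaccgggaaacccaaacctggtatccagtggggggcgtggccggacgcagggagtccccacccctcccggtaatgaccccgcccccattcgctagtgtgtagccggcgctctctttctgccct
The Stab1 stretch held 2 matches, the Stab2 stretch 1 and the Kdr stretch 0, and 25.7% of 32851 promoter windows of the same length held at least 1. A search on both strands for AGAACA, the half-site of the glucocorticoid receptor, gave 0 matches in all 3, where 16.1% of promoter windows held one. Overlapping matches were counted separately. RefSeq windows were found for 7 of the 10 members. Among them 4 held the ETS core and 1 (Fcgr2b) held the glucocorticoid half-site. A match is a description of the letters and no evidence of binding.

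A GATA core, AGATAA, on either strand, was looked for in the same way, since GATA factors are known to maintain sinusoidal endothelium. It was in 0 of the 7 member windows, where 10.0% of all windows held it.

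Lyve1 (ENSMUSG00000030787, chromosome 7, 110850607 to 110863239, minus strand in GRCm38, as are the positions below) was the member with the largest increase. It had 4.71, 3.42, 3.36 and 1.72 FPKM in the dexamethasone libraries 1 to 4, against 0.386, 1.08, 1.88 and 0.952 FPKM in the vehicle libraries 1 to 4. Dexamethasone 4, the shallowest library, was the only dexamethasone library that did not lie above all vehicle libraries, and it lay below vehicle 3 alone. The group means were 3.30 ± 1.22 FPKM with dexamethasone and 1.07 ± 0.616 FPKM with vehicle (SD, n = 4 each), 3.07-fold apart. The log2 fold change was 1.05 ± 0.28 (limma adjusted p = 0.034). Genes were tested if they reached 0.5 FPKM in 4 libraries. Lyve1 reached that level in all dexamethasone libraries and in vehicle 2, 3 and 4, but not in vehicle 1. The vehicle group alone would therefore not have met this filter, which limits its call. With no filter Lyve1 did not pass (limma adjusted p = 0.16), and with the filter at 1 FPKM it did (limma adjusted p = 0.029).

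The gene was near the lower end of what this depth resolves. Its fragments, inferred from the scaled counts, numbered 69, 43, 47 and 19 in the dexamethasone libraries and 5, 17, 37 and 15 in the vehicle libraries. After median-ratio scaling the groups did not overlap, with 2.53 to 4.95 FPKM with dexamethasone and 0.313 to 1.57 FPKM with vehicle, and Lyve1 rose by 1.29 ± 0.24 (limma adjusted p = 0.0091). The call as deposited was lost when any 1 of 6 libraries was left out, namely dexamethasone 1, 2 or 3 or vehicle 1, 2 or 4, with limma adjusted p from 0.055 to 0.10 and log2 fold changes from 0.87 to 1.07. After scaling it held without each of the 8 libraries in turn, with limma adjusted p from 0.0088 to 0.030.

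The stabilins share a domain plan. Stab1 (ENSMUSG00000042286, chromosome 14, 31139013 to 31168641, minus strand) had 22.04, 20.2, 24.8 and 13.0 FPKM in the dexamethasone libraries, against 13.8, 11.8, 18.4 and 10.7 FPKM in the vehicle libraries. The groups overlapped through dexamethasone 4 and vehicle 3, and the deposited values did not pass (20.01 ± 5.04 FPKM with dexamethasone and 13.6 ± 3.40 FPKM with vehicle, SD, n = 4 each, log2 fold change 0.51 ± 0.24, limma adjusted p = 0.19). After scaling the dexamethasone libraries spanned 19.1 to 27.8 FPKM and the vehicle libraries 9.22 to 15.3 FPKM, and Stab1 rose by 0.90 ± 0.19 (limma adjusted p = 0.016). That call was lost without dexamethasone 3 (0.79, limma adjusted p = 0.052) and held without each of the others. The Stab1 locus in the table is shared with Nt5dc2 on the other strand, and whether counting used strand is not given in the sources used here. Nt5dc2 had 0.958 ± 0.570 FPKM with dexamethasone and 0.964 ± 0.649 FPKM with vehicle (SD, n = 4 each).

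Stab2 (ENSMUSG00000035459, chromosome 10, 86841198 to 87008025, minus strand), the stabilin best known for taking up hyaluronan, had 4.13, 18.6, 6.42 and 6.51 FPKM in the dexamethasone libraries, against 8.79, 6.85, 9.90 and 7.61 FPKM in the vehicle libraries. Dexamethasone 2 was the highest of all 8 and dexamethasone 1 the lowest. Stab2 passed on neither scale (log2 fold change -0.09 ± 0.34, limma adjusted p = 0.89 as deposited, and 0.27 ± 0.32, limma adjusted p = 0.70 after scaling). The high value was not matched in the scaled counts, the other measure in the table, where dexamethasone 2 had 181 and vehicle 3 had 173. For each 100 scaled counts Stab2 was credited with 10.3 FPKM in dexamethasone 2 and 8.76 FPKM in dexamethasone 4, against 4.26 and 4.31 FPKM in dexamethasone 3 and 1 and 4.68 to 6.03 FPKM in the vehicle libraries.

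The remaining uptake and immune receptors had negative log2 fold changes as deposited, where the median of all genes was -0.28, and passed on neither scale. Mrc1 (ENSMUSG00000026712, chromosome 2, 14229392 to 14332057, plus strand) had 4.53, 6.18, 5.05 and 3.13 FPKM in the dexamethasone libraries, against 7.98, 7.46, 7.51 and 6.83 FPKM in the vehicle libraries. Every dexamethasone library lay below every vehicle library, but the log2 fold change of -0.59 ± 0.22 did not pass (limma adjusted p = 0.10), and after scaling it was -0.24 ± 0.16 (limma adjusted p = 0.43). Fcgr2b (ENSMUSG00000026656, chromosome 1, 170958617 to 170976547, minus strand) had 11.01, 10.5, 10.7 and 9.06 FPKM in the dexamethasone libraries, against 14.2, 15.7, 16.9 and 14.3 FPKM in the vehicle libraries. These groups lay apart as well, with log2 fold changes of -0.53 ± 0.18 (limma adjusted p = 0.090) as deposited and -0.14 ± 0.15 (limma adjusted p = 0.66) after scaling. Clec4g (ENSMUSG00000074491, chromosome 8, 3707064 to 3720651, minus strand) had 8.78, 9.34, 7.73 and 6.21 FPKM in the dexamethasone libraries, against 9.65, 13.3, 12.9 and 11.5 FPKM in the vehicle libraries. All 4 dexamethasone libraries lay below the lowest vehicle library, dexamethasone 2 by the least, and Clec4g did not pass as deposited (-0.51 ± 0.21, limma adjusted p = 0.13) or after scaling (-0.14 ± 0.16, limma adjusted p = 0.68). Its row shares a locus in the table with the predicted gene Gm9814, and Stab2, Fcgr2b and Clec4g have annotated antisense genes whose reads cannot be told apart without knowing the strand setting.

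Groups that do not overlap were common in the deposited values. In FPKM as deposited 4 members (Kdr, Fcgr2b, Clec4g and Mrc1) were lower in every dexamethasone library than in every vehicle library, where 16.2% of all genes were, and 1 (Oit3) was higher, where 2.18% were. After scaling 1 member (Kdr) lay lower, where 7.11% of all genes did, and 3 (Lyve1, Stab1 and Oit3) lay higher, where 7.31% did.

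Oit3 (ENSMUSG00000009654, chromosome 10, 59422958 to 59441778, minus strand) had 7.08, 10.9, 13.7 and 7.46 FPKM in the dexamethasone libraries, against 5.22, 6.43, 6.79 and 4.12 FPKM in the vehicle libraries. Every dexamethasone library lay above every vehicle library, dexamethasone 1 by the least. The means were 9.77 ± 3.10 FPKM with dexamethasone and 5.64 ± 1.21 FPKM with vehicle (SD, n = 4 each), and the log2 fold change of 0.67 ± 0.25 did not pass as deposited (limma adjusted p = 0.10). After scaling Oit3 rose by 1.03 ± 0.21 (limma adjusted p = 0.013), and this held without each library in turn (limma adjusted p from 0.0076 to 0.046).

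The size of the Oit3 difference depended on which of the deposited measures was read. For each 100 scaled counts the gene was credited with 13.1 FPKM in dexamethasone 3 and 11.8 FPKM in dexamethasone 4, against 6.41 and 6.80 FPKM in dexamethasone 2 and 1 and 6.40 to 6.91 FPKM in the vehicle libraries. In the scaled counts dexamethasone 3, the highest library by FPKM, had 104 and vehicle 3 also had 104. With scaled counts in place of FPKM the log2 fold change was 0.32 ± 0.29 (limma adjusted p = 0.45) as deposited and 0.78 ± 0.18 (limma adjusted p = 0.0069) after median-ratio scaling of the counts.

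Of the growth factor receptors, Kdr fell. Kdr (ENSMUSG00000062960, chromosome 5, 75932827 to 75978458, minus strand) had 3.75, 3.34, 3.01 and 3.18 FPKM in the dexamethasone libraries, against 5.94, 6.91, 7.27 and 5.97 FPKM in the vehicle libraries. The dexamethasone libraries were all well below the lowest vehicle library and close to each other. The means were 3.32 ± 0.318 FPKM with dexamethasone and 6.52 ± 0.672 FPKM with vehicle (SD, n = 4 each), a ratio of 0.509, and the log2 fold change was -0.80 ± 0.19 (limma adjusted p = 0.022). Unlike Stab2 and Oit3, the credit for each 100 scaled counts was even, at 2.92 to 3.30 FPKM with dexamethasone and 2.93 to 3.04 FPKM with vehicle.

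The Kdr call as deposited was lost without dexamethasone 3 or vehicle 1, 2 or 3 (limma adjusted p from 0.051 to 0.075), while the log2 fold change stayed between -0.85 and -0.75. After median-ratio scaling Kdr had 3.20 to 4.67 FPKM with dexamethasone and 4.81 to 6.08 FPKM with vehicle, and the log2 fold change of -0.46 ± 0.17 did not pass (limma adjusted p = 0.15). In the scaled counts Kdr fell on both scales, by 1.01 ± 0.23 as deposited (limma adjusted p = 0.0039) and by 0.54 ± 0.16 after median-ratio scaling (limma adjusted p = 0.038). The related receptor Flt4 (ENSMUSG00000020357, chromosome 11, 49609263 to 49652739, plus strand) had 2.59, 3.47, 3.13 and 1.41 FPKM in the dexamethasone libraries, against 2.11, 2.96, 2.22 and 2.59 FPKM in the vehicle libraries. Its groups overlapped, and it passed on neither scale (0.04 ± 0.24, limma adjusted p = 0.93 as deposited, and 0.32 ± 0.19, limma adjusted p = 0.40 after scaling).

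Pecam1 (ENSMUSG00000020717, chromosome 11, 106654217 to 106750628, minus strand), which marks endothelium of all kinds, had 2.51, 5.52, 3.07 and 2.40 FPKM in the dexamethasone libraries, against 3.65, 4.49, 3.06 and 3.93 FPKM in the vehicle libraries. The groups overlapped widely. The log2 fold change was -0.17 ± 0.25 (limma adjusted p = 0.68) as deposited and 0.14 ± 0.21 (limma adjusted p = 0.77) after scaling.

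**Figure D2:**
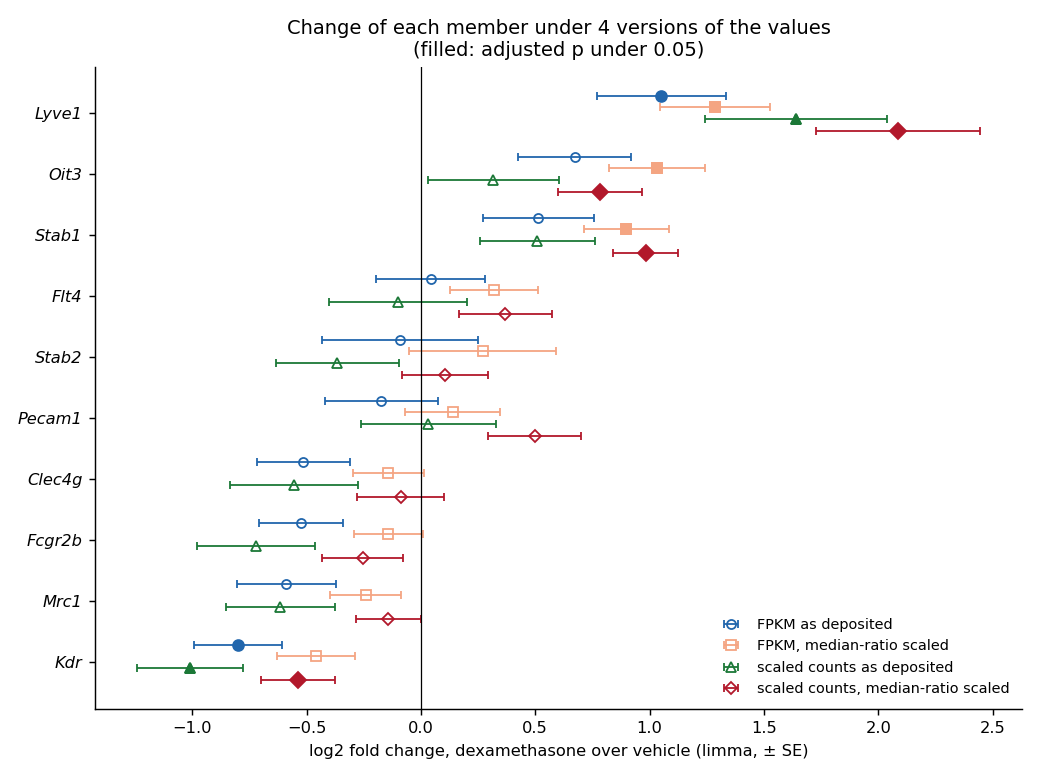
Log2 fold change of each member, dexamethasone over vehicle, with its SE from limma, for FPKM and scaled counts, each as deposited and after median-ratio scaling. Filled symbols have an adjusted p under 0.05. Lyve1 is filled in all 4 versions, Kdr in 3, Stab1 and Oit3 in the 2 scaled versions, and the other 6 members in none.

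In scaled counts as deposited, 1 member was called higher, where 1.59% of all genes were, and 1 lower, where 14.4% were. In scaled counts after median-ratio scaling, 3 were called higher and 1 lower, where 5.27% of all genes were called in each direction. Lyve1 was the member with the largest log2 fold change in all 4 versions, at 1.64 ± 0.40 in the scaled counts as deposited (limma adjusted p = 0.0062) and 2.09 ± 0.36 after median-ratio scaling of them (limma adjusted p = 5.0e-04). As deposited, its group means lay 3.07-fold apart in FPKM and 3.02-fold apart in scaled counts. The larger log2 fold change in scaled counts is therefore no sign of a larger change.

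A ratio between members within 1 library does not depend on how libraries are scaled to each other. Against Pecam1, Lyve1 had a median ratio of FPKM of 0.907 with dexamethasone (0.619 to 1.88) and 0.241 with vehicle (0.106 to 0.614), and the groups did not overlap. Kdr stood at 1.15 times Pecam1 with dexamethasone (0.605 to 1.496) and 1.58 times with vehicle (1.52 to 2.37), again without overlap. For the other members the FPKM ratios to Pecam1 overlapped between the groups, and Stab1 had medians of 6.74 with dexamethasone and 3.24 with vehicle. In scaled counts these ratios lay closer for some members, with medians for Stab1 of 8.80 with dexamethasone and 6.84 with vehicle, and for Lyve1 of 0.801 with dexamethasone and 0.340 with vehicle. In that measure the groups did not overlap for Lyve1, Stab1 (higher), Kdr, Stab2 and Mrc1 (lower). Pecam1, the shared denominator, had 47, 72, 54 and 26 inferred fragments in dexamethasone 1 to 4. In vehicle 1 to 4 it had 50, 54, 84 and 41, so its counting error enters every ratio to it. The share of all genes whose ratio to Pecam1 does not overlap was not computed, in either measure. For each 100 scaled counts Pecam1 itself was credited with 5.13 to 7.19 FPKM with dexamethasone and 5.07 to 9.97 FPKM with vehicle. Ratios to Kdr, taken after the values were seen, lay further apart. The ratio of Lyve1 to Kdr was 0.543 to 1.26 with dexamethasone and 0.0650 to 0.259 with vehicle. That of Stab1 to Kdr was 4.09 to 8.24 with dexamethasone and 1.71 to 2.52 with vehicle, and that of Oit3 to Kdr was 1.89 to 4.54 with dexamethasone and 0.690 to 0.934 with vehicle. Because these members were paired for having moved apart, the ratios to Kdr are a description and were not tested.

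**Figure D3:**
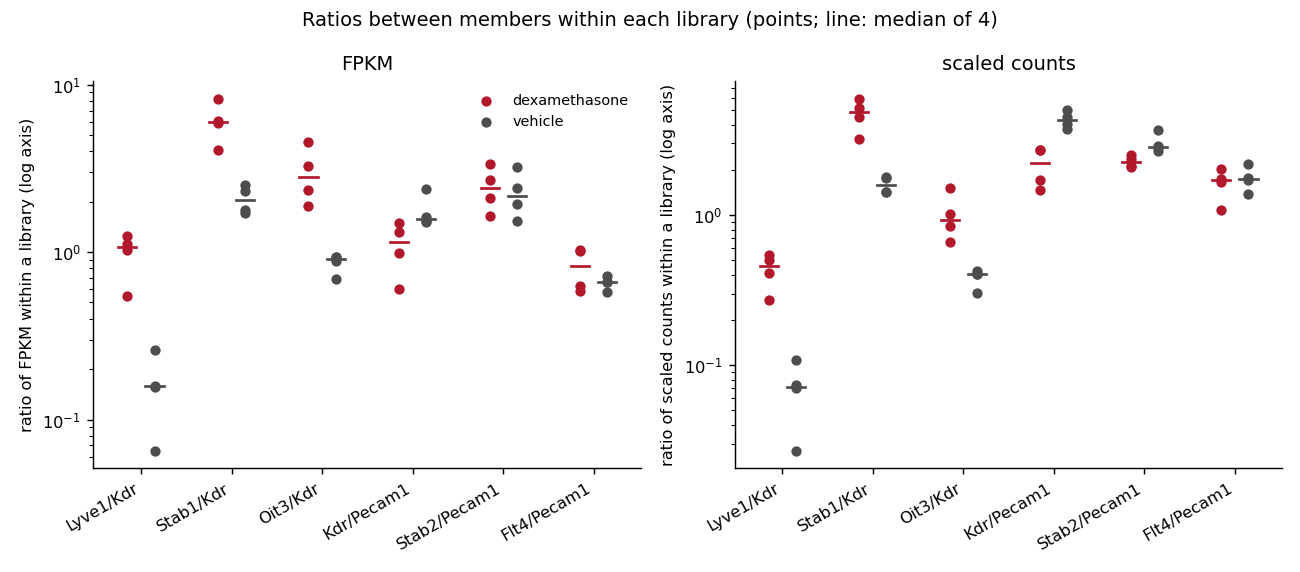
Ratios between members within each library, on log axes, from FPKM at left and scaled counts at right, with dexamethasone left of vehicle in each pair. Points are libraries and lines are medians of 4. The ratios of Lyve1, Stab1 and Oit3 to Kdr do not overlap between the groups in either measure, and Kdr to Pecam1 lies lower with dexamethasone in both.

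By level per length, the members fell into a different order in each group. With dexamethasone Stab1 was first at 20.01 FPKM, followed by Fcgr2b, Oit3, Stab2, Clec4g, Mrc1, Pecam1, Kdr, Lyve1 and Flt4 at 2.65 FPKM. With vehicle Fcgr2b was first at 15.3 FPKM, followed by Stab1, Clec4g, Stab2, Mrc1, Kdr, Oit3, Pecam1, Flt4 and Lyve1 at 1.07 FPKM. Of the 9 steps between neighbours in each order, 2 were clear of overlap between libraries with dexamethasone (Stab1 above Fcgr2b, and Clec4g above Mrc1) and 2 with vehicle (Pecam1 above Flt4, and Flt4 above Lyve1). As a share of inferred fragments outside Lars2, the 10 members together made up 0.0890% to 0.109% with dexamethasone and 0.0687% to 0.0832% with vehicle. Stab1 alone gave 576, 626, 481 and 223 of the 1407, 1598, 1244 and 598 member fragments in dexamethasone 1 to 4. In vehicle 1 to 4 it gave 329, 344, 611 and 291 of 1220, 1464, 2140 and 1228. The share is thus weighted to Stab1 and does not show a rise of the members as a set.

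Of 16 further genes of sinusoidal endothelium, 14 were tested and 0 passed as deposited by limma (1 rose after scaling and 2 rose in scaled counts after scaling). At an unadjusted p under 0.05, 1 was higher and 1 lower as deposited. The list's median log2 fold change was -0.02 as deposited and 0.18 after scaling. The member of this list with the smallest p as deposited was Zeb2, a transcription factor (-0.57 ± 0.20, limma adjusted p = 0.083). Maf, a transcription factor of these cells named after its value was seen, rose after scaling by 0.81 ± 0.18 (limma adjusted p = 0.025), with 4.74 ± 1.12 FPKM with dexamethasone and 3.02 ± 0.534 FPKM with vehicle (SD, n = 4 each), and that call held without 3 of the 8 libraries in turn. The endothelial receptor gene Gpr182 (-0.25 ± 0.21, limma adjusted p = 0.45) and Gata4, which encodes a transcription factor that maintains sinusoidal identity (-0.31 ± 0.20, limma adjusted p = 0.34), did not pass as deposited and stood at 0.02 and -0.05 after scaling.

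Among genes of endothelium in general, 26 of 30 were tested, of which 1 was called higher (Nos3) and 1 lower (Icam2) as deposited, and 5 higher (Nos3 among them) and 0 lower after scaling. Nos3, which encodes the endothelial nitric oxide synthase, had 1.18, 0.929, 1.14 and 1.39 FPKM in the dexamethasone libraries, against 0.327, 0.259, 0.403 and 0.197 FPKM in the vehicle libraries. Every dexamethasone library lay above every vehicle library. It met the filter of 0.5 FPKM in 4 libraries only through the dexamethasone group, so its call carries no weight. With the filter at 1 FPKM Nos3 was not tested, so the 0 higher genes of the list there were no failed test of it. Nos3 was called in 34 of the 35 alternatives that tested it. The 1 loss came with a library left out as deposited (limma adjusted p = 0.058). Icam2, an adhesion molecule of endothelium and blood cells, was the gene called lower, with 0.754 ± 0.480 FPKM with dexamethasone and 2.63 ± 1.12 FPKM with vehicle (SD, n = 4 each). It met the filter in 4 libraries through the vehicle group, although dexamethasone 1 and 4 also lay above 0.5 FPKM (1.46 and 0.659 FPKM). Its call likewise carries no weight. After scaling Flt1, Gpr116, Ptprb and Egfl7 rose as well, by 0.58 to 0.83 (limma adjusted p from 0.029 to 0.044), and these calls held without at most 3 of the 8 libraries in turn. Of genes of veins, arteries and continuous capillaries, 9 of 15 were tested and 0 passed as deposited by limma (1 higher and 0 lower at an unadjusted p under 0.05). Thbd, which encodes the anticoagulant receptor thrombomodulin, came nearest (0.74 ± 0.22, limma adjusted p = 0.053) and rose after scaling (0.97 ± 0.18, limma adjusted p = 0.0086).

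Around Kdr, the co-receptor gene Nrp1 and the ligand gene Vegfa were called lower as deposited. Of 12 ligands, receptors and co-receptors of the VEGF and angiopoietin pathways outside the members, 7 were tested (Flt1, Tek and Tie1 are also on the list of endothelium in general), with 0 higher and 2 lower as deposited and 1 higher and 1 lower after scaling. Nrp1, which encodes neuropilin 1, a co-receptor that strengthens VEGF signalling through Kdr, had 5.01, 4.35, 3.12 and 2.10 FPKM in the dexamethasone libraries, against 10.8, 11.7, 16.1 and 12.0 FPKM in the vehicle libraries. The groups lay far apart, and Nrp1 fell on both scales, by 1.59 ± 0.24 as deposited (limma adjusted p = 0.0019) and by 1.24 ± 0.20 after scaling (limma adjusted p = 0.0036). The ligand gene Vegfa, which hepatocytes also express, had 43.5, 53.6, 30.8 and 28.1 FPKM in the dexamethasone libraries, against 106, 104, 79.9 and 50.8 FPKM in the vehicle libraries. Dexamethasone 2 lay above vehicle 4, and Vegfa fell as deposited (-1.10 ± 0.28, limma adjusted p = 0.027) but did not pass after scaling (-0.69 ± 0.19, limma adjusted p = 0.057). In scaled counts after median-ratio scaling it passed (-0.92 ± 0.16, limma adjusted p = 4.6e-04), and in scaled counts as deposited it passed without each library in turn. The call on deposited FPKM was lost without dexamethasone 3 or 4 or vehicle 1, 2 or 3 (limma adjusted p from 0.054 to 0.090). Flt1, which encodes VEGFR1, a receptor that binds VEGF with little signalling, went the other way after scaling (0.83 ± 0.20, limma adjusted p = 0.029) and did not pass as deposited (0.54 ± 0.24, limma adjusted p = 0.16). Of the related uptake receptors and hyaluronan genes, 17 of 24 were tested and 0 passed as deposited or after scaling by limma (0 higher and 4 lower at an unadjusted p under 0.05 as deposited, 1 and 0 after scaling), with Colec12, a scavenger receptor of the collectin family, nearest (-0.61 ± 0.22, limma adjusted p = 0.10).

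**Figure D4:**
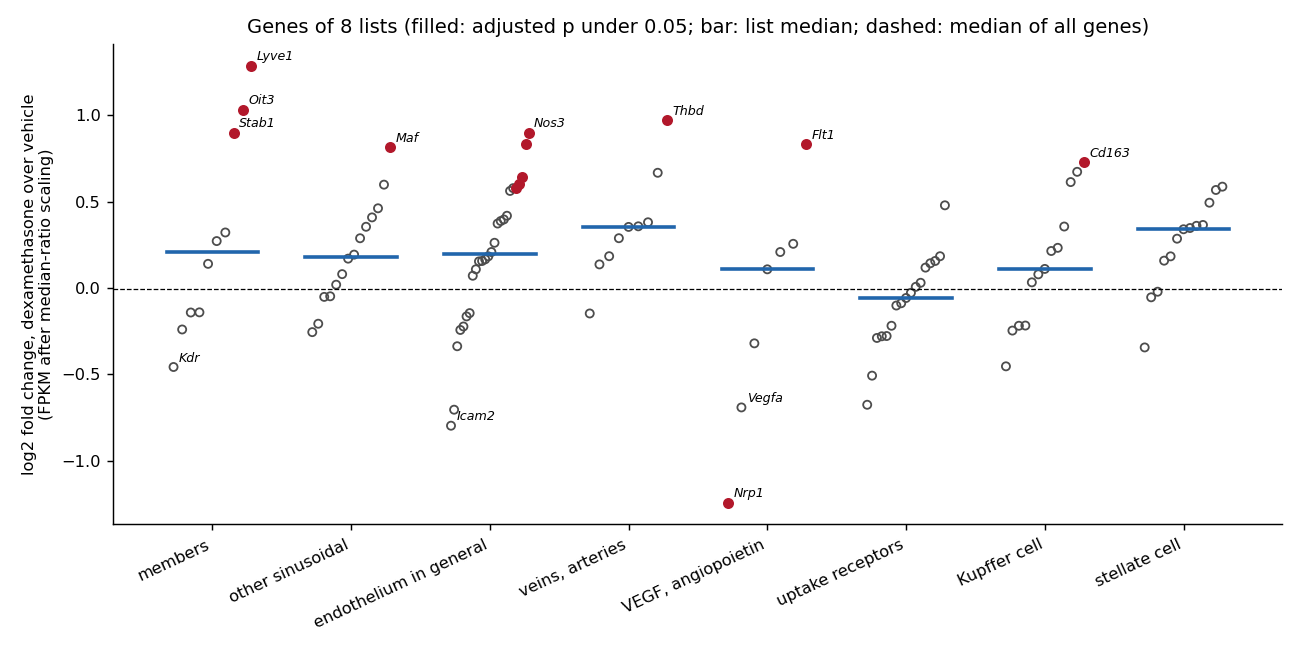
Log2 fold change, dexamethasone over vehicle, of the tested genes of 8 lists, from FPKM after median-ratio scaling. Each point is a gene, filled where the adjusted p is under 0.05, bars are list medians and the dashed line is the median of all genes at -0.00. Lyve1 at 1.29 and Nrp1 at -1.24 lie furthest from the line among these genes.

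Markers of neighbouring cells were read beside the members, since Mrc1, Fcgr2b and Lyve1 are not carried by sinusoidal endothelium alone. Of Kupffer cell and macrophage markers, 13 of 14 were tested and 0 passed as deposited. Their summed level was 51.0 to 68.7 FPKM with dexamethasone and 49.1 to 84.7 FPKM with vehicle. Cd5l, a protein secreted by macrophages, was nearest to the threshold (-0.82 ± 0.25, limma adjusted p = 0.054), and Cd163, a scavenger receptor of macrophages, rose after scaling (0.73 ± 0.19, limma adjusted p = 0.049), a call lost without any 1 of the 8 libraries (limma adjusted p from 0.052 to 0.13). Stellate cell and fibroblast markers summed to 111 to 163 FPKM with dexamethasone and 138 to 146 FPKM with vehicle, and 0 of the 13 tested passed on either scale, with Hgf nearest (-0.68 ± 0.23, limma adjusted p = 0.077). Of 5 lymphatic endothelial markers 2 were tested and 0 passed on either scale by limma, Prox1, a transcription factor that hepatocytes also express (14.2 ± 1.84 FPKM with dexamethasone and 15.2 ± 4.68 FPKM with vehicle, SD, n = 4 each), and Reln, which is on the stellate list too (12.5 ± 2.02 FPKM with dexamethasone and 12.8 ± 1.66 FPKM with vehicle, SD, n = 4 each). Ccl21a was listed at 0 in every library, and Pdpn and Mmrn1 reached at most 0.293 and 0.125 FPKM with dexamethasone and 0.394 and 0.227 FPKM with vehicle. Of T and NK cell markers 1 of 8 was tested, the pan-leukocyte gene Ptprc, which had 0.113 to 0.652 FPKM with dexamethasone and 0.872 to 1.55 FPKM with vehicle. Ptprc was called lower as deposited (-0.67 ± 0.19, limma adjusted p = 0.047) and in scaled counts after scaling (limma adjusted p = 0.027). In FPKM after scaling it did not pass (limma adjusted p = 0.20). It met the filter in 4 libraries through the vehicle group, although dexamethasone 4 also lay above 0.5 FPKM, so its call carries no weight. Of red cell markers, a sign of blood left in the tissue, 0 of the 5 tested passed in FPKM as deposited or after scaling. The haemoglobin gene Hbb-bs had 26.6 ± 13.9 FPKM with dexamethasone and 14.9 ± 6.60 FPKM with vehicle (SD, n = 4 each), a value that near-identical globin genes may share. In scaled counts after median-ratio scaling Hbb-bs was called higher (1.21 ± 0.33, limma adjusted p = 0.021). Of mesothelial markers 1 of 3 was tested, Msln, which did not pass (0.25 ± 0.22, limma adjusted p = 0.49). No B cell or neutrophil marker reached the filter. Hepatocyte markers were abundant in every library, at 10280 to 19300 FPKM summed with dexamethasone and 17220 to 25230 FPKM with vehicle. Of the 9 tested, 0 passed as deposited, and Cps1 and Hnf4a rose after scaling, by 0.73 ± 0.13 and 0.92 ± 0.18 (limma adjusted p = 0.0059 and 0.011). Across these neighbouring-cell lists, at an unadjusted p under 0.05 as deposited, limma gave 1 lower gene each for Kupffer, stellate and T and NK cell markers, 1 higher and 1 lower for hepatocyte markers, and 0 for lymphatic, red cell and mesothelial markers. After scaling, where 3 members were called higher, the same count was 5 higher for hepatocyte markers, 3 higher for red cell markers, 2 higher and 1 lower for Kupffer markers, 2 higher for stellate markers and 1 lower for T and NK cell markers. The median log2 fold change after scaling was 0.43 for hepatocyte and 0.34 for stellate markers, above the 0.21 of the members, and 0.11 for Kupffer markers, below it. A median above that of all genes was therefore not particular to the members. The part of these other cells in the values of the members was not tested.

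The genes outside the members whose profile over the 8 libraries lay nearest to the mean profile of the members were Ghdc, Map4, Ech1, Map4k4 and Sf3b1. Their root mean square difference from it was 0.044 to 0.075 on the log2 scale after scaling, against a median of 0.372 over the 8636 genes compared. The members themselves lay at 0.162 (Flt4) to 0.570 (Lyve1) from their own mean, and 6 of the 10 lay nearer to it than the median gene. Stab1 was among these by a narrow margin, at 0.3712 against 0.3719. Each member is part of that mean and the other genes are not, so the comparison favours the members and shows no likeness among them.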

How the data were processed

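Liver RNA of 8 mice was sequenced after removal of ribosomal RNA and stranded library preparation, per the labels' protocols. The submitters' processing notes name CASAVA 1.8, TopHat2 and the human build hg19, although the identifiers are those of mouse. The counting tool is not given in the sources used here. Of 22565 gene identifiers, 21840 were found in GENCODE M21 (GRCm38), from which member positions were taken. The authors deposited FPKM per library without naming the total used as denominator. The columns headed count were read as a scaled signal deposited by the authors, since each library has its own step, of which 93.2% to 95.4% of values under 500 steps are whole multiples within 0.01. This was too few for a count test, so no count test was run. Inferred fragments are the scaled count divided by that step. Their totals on protein-coding genes were 1361295 to 2219957 with dexamethasone and 2077512 to 3360083 with vehicle, and counting error alone limits members with few fragments.

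Tests used R 4.3.3 and limma 3.58.1: a linear model of log2(FPKM + 1) on treatment alone, moderated by eBayes with trend. It covered 10221 genes that reached 0.5 FPKM in 4 or more libraries. Tests were two-sided with Benjamini-Hochberg adjustment over all genes tested and a threshold of 0.05. On simulated data with 200 of 10221 genes changed, 57% of changes of 1 on the log2 scale were recovered. For changes of 2 it was 98%, and 8 unchanged genes were called. The median log2 fold changes there were 1.01 and 2.02, without the shift of -0.28 that the median gene had as deposited. Recovery under that shift was not tested. The changed genes were drawn only from genes above about 2 FPKM with vehicle after scaling, and recovery was not split by level. No figure therefore covers a gene as low as Lyve1 with vehicle (1.07 FPKM). The members, the 15 other gene lists and the tests were chosen with earlier results of these data known. Named genes were all members, from each list those past the threshold (up to 3 of smallest p) or else the 1 of smallest p, and the 5 nearest profiles among genes at a mean of 1 FPKM or more. Gpr182 and Gata4 (as known genes of these cells), Nt5dc2, and genes called only after scaling were added after their values were seen. Alternatives were other pseudocounts, filters, scalings, weights and variance estimates, the replicate number as a term, each library left out in turn and, chosen after seeing the data, scaled counts in place of FPKM. The cholangiocyte list is not reported here. One line of the table was empty and was not used.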

Additional observations from a re-analysis of the deposited data

Results flagged for a closer look

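In groups of 4 libraries, 2 values of Stab2 stood far from the other libraries of their group, among 40 groups looked at (10 members, 2 groups and 2 measures). Chance alone marks about 1 in 20 groups. The FPKM of Stab2 was 18.6 in dexamethasone 2, against 4.13 to 6.51 in the other dexamethasone libraries. Its scaled count was 173 in vehicle 3, against 146 in each of the other vehicle libraries. The other members had no such library in either measure. The Stab2 value of dexamethasone 2 was not matched by its scaled count of 181, as given with the gene above, and the cause was not tested.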

How the results depend on the processing

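Lyve1 kept its direction in all 36 alternatives, with log2 fold changes of 0.87 to 2.09, and Kdr did too, at -1.07 to -0.40. These ranges mix FPKM, scaled counts and several pseudocounts, on which sizes cannot be compared directly. The number of genes called higher (140) and lower (802) became 70 and 246 with no filter, 337 and 310 after median-ratio scaling, 335 and 335 after quantile normalization, and 243 and 192 with the replicate block and median-ratio scaling together. With scaled counts 163 genes were higher and 1473 lower, and with scaled counts after median-ratio scaling 539 were higher and 539 lower. Leaving out 1 library, over all 3 versions of the values, gave 107 to 311 genes higher and 183 to 1929 lower. As deposited, 459 genes were lower without dexamethasone 3, and 423, 367 and 404 without vehicle 1, 2 and 3.

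The count of members called higher (1) was 0 with no filter, where Lyve1 had an adjusted p of 0.16, 2 with the replicate block, and 3 after median-ratio scaling, after quantile normalization, with the block and median-ratio scaling together, and with scaled counts after median-ratio scaling. The count called lower (1) was 2 with no filter and 0 after median-ratio scaling, after quantile normalization, and with the block and median-ratio scaling together. Leaving out 1 library gave 0 to 3 members higher and 0 to 3 lower. Where 0 members were lower after scaling, 1 (Kdr) had an unadjusted p under 0.05.

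Both groups number their libraries alike, yet nothing in the labels makes these numbers pairs. Deviations from the group means correlated at -0.015 to 0.021 between same-numbered libraries, 0 vehicle libraries were nearest to their own number, and the block as deposited gave 159 genes higher and 956 lower, with Oit3 called (adjusted p = 0.048).

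Fcgr2b, Clec4g, Mrc1, Stab1 and Oit3 kept their direction in all 36 alternatives, while Stab2, Pecam1 and Flt4 did not. Stab2 turned to 0.27 after median-ratio scaling, with or without the block, 0.24 after quantile normalization and 0.11 with scaled counts after scaling, and spanned -0.57 to 0.56 with 1 library left out. Pecam1 turned to 0.14, 0.12 and 0.50 under the same settings and to 0.033 with scaled counts, spanning -0.38 to 0.26. Flt4 turned to -0.10 with scaled counts, spanning -0.33 to 0.43. Prox1, the lymphatic list's gene of smallest p, turned from -0.05 to 0.34 (median-ratio scaling), 0.31 (quantile) and 0.19 (scaled counts after scaling), spanning -0.48 to 0.45. With scaled counts the log2 ratio of group medians against Pecam1 turned from 0.14 to -0.34 for Stab2 and from 0.32 to -0.0314 for Flt4. The cause was not tested. The edgeR test on recovered reads was not run, since whole reads were not recovered.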
